A study of Mus musculus with 32 samples.

Results

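The mRNA levels of 8 DNA mismatch repair genes, Msh3, Msh6, Mlh3, Pms1, Pms2, Exo1, Rfc2 and Rfc3, were followed in liver cells and colorectal cancer cells of the mouse. Every probe that the array files name after one of these genes was taken, which gave 8 of 34821 gene names and 11 of the 55681 probes: 3 for Msh3, 2 for Pms2 and 1 for each of the other genes. The study asked how liver cells change when a colorectal tumor colonizes the liver. Balb/c mice received C26 colon carcinoma cells, a line from the same strain, into the spleen, and control mice received PBS. Liver endothelial, Ito and Kupffer cells were then isolated from both kinds of animal by perfusion, density gradients and adherence, and kept briefly in culture. This gave control and tumor microenvironment (TME) groups for endothelial (EC and ET), Ito (IC and IT) and Kupffer cells (KC and KT). The remaining groups are labelled tumor liver metastasis cells (TM) and colorectal cancer primary cells (TP), and how they were obtained is not given in the sources used here. Each of the 8 groups had 4 samples, described by the authors as biological replicates. C26 is a single line, so the results for TM and TP, if they derive from it, would concern that line and not colorectal cancer in general.

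Mismatch repair removes base mismatches and small insertion or deletion loops that DNA polymerases leave behind. A MutS dimer finds the error, a MutL dimer is recruited and nicks the new strand, the exonuclease Exo1 removes the stretch that holds the error, and polymerase delta fills the gap with the help of the sliding clamp Pcna, which the replication factor C complex loads. Msh6 and Msh3 are the alternative subunits of the MutS dimers, the Msh6 form reading mainly base mismatches and very short loops and the Msh3 form mainly longer loops. Pms2, Pms1 and Mlh3 are the alternative subunits of the MutL dimers, and Rfc2 and Rfc3 are small subunits of replication factor C. Loss of mismatch repair is a well known route to colorectal cancer.

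Levels are log2 values of the normalized probe intensities, so a step of 1 is a doubling. A level compares samples for the same probe and does not rank probes or genes against each other. The 32 samples were read from 16 two-colour arrays on 2 slides. Slide 1 held the endothelial and Ito samples, and slide 2 those of Kupffer and tumor cells. Control and TM samples always carried Cy3, and TME and TP samples always Cy5. TME against control, and TP against TM, therefore cannot be told apart from the dye. TM against KC and TP against KT keep both the dye and the slide, and the mean of TM and TP against the mean of KC and KT balances the dyes. Differences between the groups of slide 1 and those of slide 2 are described without a test.

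Some libraries stood apart. The TME minus control difference of the array of replicate 4 ran against the mean of the other arrays in Ito cells (r = -0.66 over 17105 probes) and in Kupffer cells (r = -0.60). The epithelial marker list summed to 17.23 in replicate 2 of IT and to between 12.19 and 12.35 in the other IT samples, and the erythroid list to 16.47 in replicate 2 of ET and to between 10.13 and 11.55 in the others. In replicate 3 of KC the macrophage list summed to 15.29, against 16.80 to 17.80 in the other KC samples. The labels were also compared with markers. The Kupffer list was highest on average in KT and KC (17.44 and 16.67). Its sums in IC (15.94 to 17.5) and IT (13.14 to 17.35) overlapped those in KC (15.29 to 17.80). The Ito list was higher in EC (17.93 to 18.32) than in most IC and IT samples (16.86 to 18.11). These sums mainly reflect the list member Dcn. Dcn averaged 18.13, 17.40 and 17.36 in EC, IC and IT, where the sums averaged 18.14, 17.41 and 17.39. The Ito list member Lrat lay at 4.16 or less on average in every group. Of the 7 epithelial markers, Epcam and Cdx2 were low in all groups, TM and TP included (at most 3.26 and 2.04 on average). Krt19, Cdh1 and Vil1 averaged at most 3.95, 2.49 and 2.28 in TM and TP, well above background on at most 1 of 4 arrays. Krt18 was well above background on all TM and TP arrays (10.74 and 10.91 on average) and Krt8 on 2 of 4 TM and 4 of 4 TP arrays (5.12 and 6.68). Both averaged higher in the endothelial and Ito groups (9.6 to 11.36 for Krt8, 11.36 to 13.13 for Krt18). In KC and KT, Krt8 averaged 6.91 and 6.14, and Krt18 8.23 and 7.38. In such bulk samples, fewer cells of a type and less RNA per cell cannot be told apart.

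All 8 genes differed between tumor cells and Kupffer cells, but not in the same direction. The 8 probes of the other 7 genes were higher in TM and TP, and all 3 probes of Msh3 were lower. The Kupffer samples also carried markers of other cells, which the tumor samples did not at like levels. The endothelial list summed to 13.95 to 14.60 in KC and KT and at most 6.59 in TM and TP, the hepatocyte list to 14.05 to 16.13 and at most 6.84, and the erythroid list to 14.55 to 15.34 and at most 7.13. Their part in the results was not tested. In a limma fit with Benjamini-Hochberg adjustment over all probes, all 11 probes passed an adjusted p of 0.05, where 51.0% of all probes did so (30.8% higher and 20.2% lower). The median difference of the 11 probes was 1.81 on the log2 scale, and that of all probes was 0.11. With each channel scaled to its 75th percentile, the median of all probes was 0.55, and 71.8% of the probes called were higher, against 60.3%. The 8 genes kept their directions. Of the 11 probes, 8 did not overlap between the 8 tumor and the 8 Kupffer samples, against 26.5% of all probes. Taken separately, TM against KC and TP against KT each called the 11 probes in the same directions. Of all probes, 39.4% were called in TM against KC (23.3% higher, 16.2% lower) and 43.6% in TP against KT (25.7% higher, 17.8% lower).

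**Figure D1:**
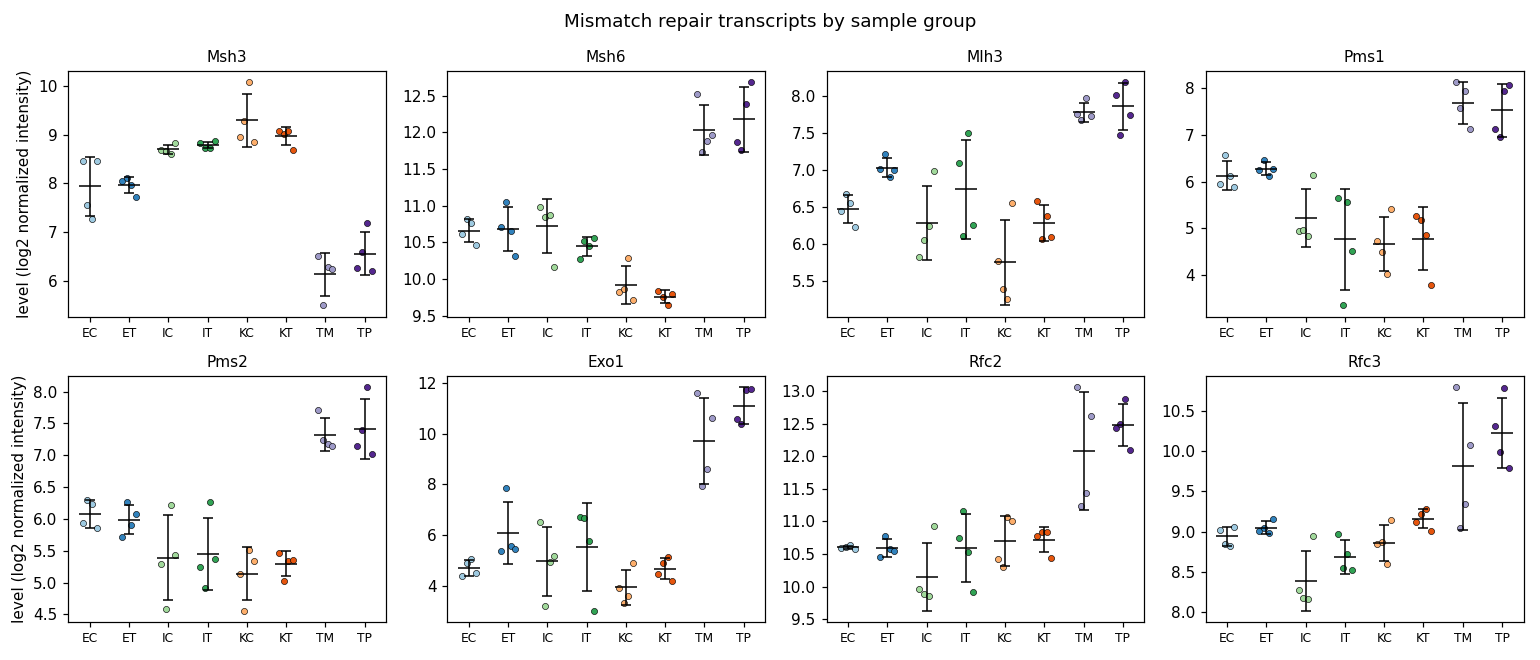
Level of each mismatch repair gene (log2 normalized intensity, vertical axis, a scale of its own per gene) in the 8 groups, for the probe that stands for the gene. Points are the 4 samples of a group, and bars the mean with 1 SD. Msh3 is lowest in TM and TP, and the other 7 genes have their highest group means there.

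Msh3 was the only member with lower levels in the tumor cells. It was measured by 3 probes, and the sequences of 2 of them are shown, to make clear that different stretches of the mRNA gave the same direction. Positions are those of the array files, on mm9, 5′ to 3′ on the minus strand. The probe A_51_P454166 starts at base 983 of the transcript and crosses an exon junction, at chr13:93115018-93116708, and A_55_P1960587 starts at base 2571, at chr13:93019783-93019842.
A_51_P454166: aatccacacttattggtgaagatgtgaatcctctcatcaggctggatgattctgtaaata
A_55_P1960587: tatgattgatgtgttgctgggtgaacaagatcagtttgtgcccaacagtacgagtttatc

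At base 983, Msh3 levels were 6.51, 5.50, 6.29 and 6.25 in TM and 6.26, 6.60, 7.18 and 6.21 in TP. They were 8.96, 9.27, 10.08 and 8.85 in KC and 9.08, 9.02, 9.08 and 8.69 in KT. At this base, every tumor sample lay below every Kupffer sample, and also below every endothelial and Ito sample, of which the lowest was 7.28. The tumor mean was 6.86-fold lower than the Kupffer mean (log2 difference -2.78 ± 0.19 SE, limma adjusted p = 4.88e-13). With another background correction (normexp with an offset of 50, quantile normalized) the log2 difference was -2.04. The probe at base 2571 gave -1.77 ± 0.25, and the probe at base 3846, A_55_P1974477, gave -1.59 ± 0.28 (limma adjusted p = 5.6e-07 and 1.7e-05).

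The Msh3 probes did not place every sample alike. In replicate 3 of KC, the Kupffer sample with the low macrophage sum, the probe at base 983 gave the highest level of all samples (10.08). The probes at bases 2571 and 3846 gave there the lowest levels among the Kupffer samples, 6.75 against 8.04 to 8.46 in the other KC samples, and 9.82 against 12.02 to 12.49. No other Kupffer sample overlapped the tumor samples for these probes. The part of the low macrophage sum in the levels of replicate 3 of KC was not tested. Other liver cells overlapped the tumor samples as well. At base 2571, replicates 2 and 3 of EC (6.70 and 6.75) and replicate 2 of IT (7.05) lay below replicate 3 of TP (7.08). At base 3846, replicates 2 and 3 of EC (10.56 and 10.49) lay below replicate 4 of TP (11.02). Over the 32 samples, the pair at bases 2571 and 3846 correlated at r = 0.94, and each with the probe at base 983 at 0.83 and 0.73. Over the 24 liver cell samples alone the latter correlations were 0.48 and 0.31. With replicate 3 of KC and 3 other samples that stood apart left out, the log2 difference at base 983 was -2.59.

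**Figure D2:**
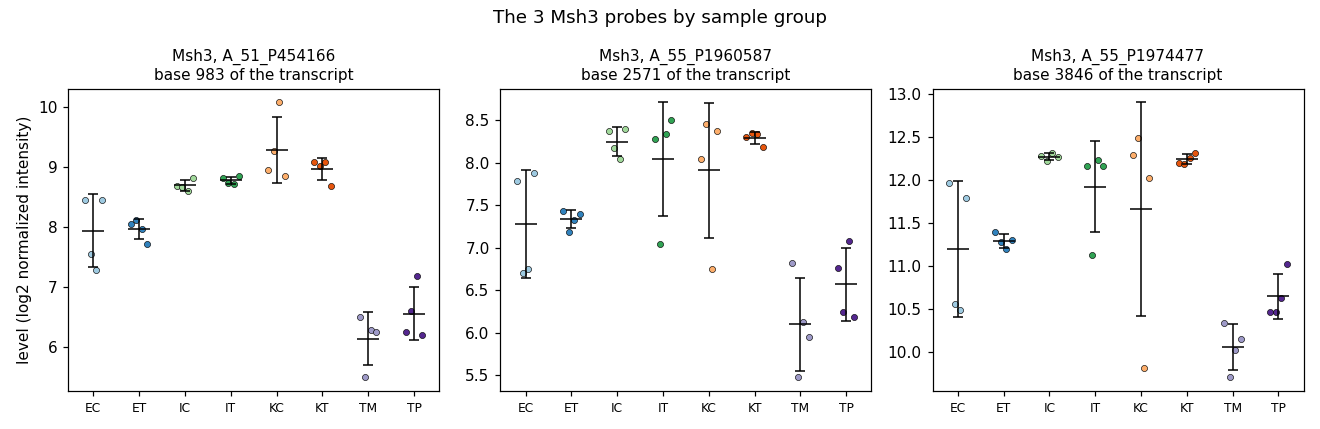
Levels of the 3 Msh3 probes (log2 normalized intensity) in the 8 groups, with the 4 samples of each group as points and the mean with 1 SD as bars. All 3 have their lowest group means in TM and TP, and 1 KC sample is high at base 983 and low at bases 2571 and 3846.

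Msh6, the other alternative MutS subunit, moved in the opposite direction. Its levels were 12.52, 11.73, 11.89 and 11.96 in TM and 11.87, 11.76, 12.39 and 12.69 in TP. In KC they were 9.82, 9.87, 10.29 and 9.71, and in KT 9.84, 9.76, 9.64 and 9.80. All 8 tumor samples were above all 24 liver cell samples, whose highest value was 11.05. The difference from Kupffer cells was 2.26 ± 0.14 on the log2 scale, or 4.79-fold (limma adjusted p = 1.59e-13). The Msh6 mean was lowest in KT (9.76 ± 0.09, SD, n = 4) and KC (9.92 ± 0.26). The Msh3 means at base 983 were highest in these groups (8.97 ± 0.19 and 9.29 ± 0.55), but those of KC at bases 2571 (7.91) and 3846 (11.66) lay below the means of IC (8.25 and 12.27) and IT (8.04 and 11.92).

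The MutL subunits Pms2, Pms1 and Mlh3 were all higher in tumor than in Kupffer cells. Pms2 was measured by 2 probes. The sequence of A_55_P2156823, the more variable of them and so the probe that stands for the gene, is given because the probes tell apart liver cell types differently below. It starts at base 2244 of the transcript, on the plus strand at chr5:144689834-144689893 of mm9.
A_55_P2156823: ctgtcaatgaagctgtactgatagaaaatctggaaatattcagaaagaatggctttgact

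This Pms2 probe gave 7.71, 7.24, 7.18 and 7.15 in TM, 7.14, 7.39, 8.07 and 7.02 in TP, 5.14, 4.56, 5.51 and 5.34 in KC and 5.47, 5.03, 5.34 and 5.35 in KT. The tumor samples lay above the Kupffer samples without overlap, at 4.41-fold (log2 difference 2.14 ± 0.20, limma adjusted p = 5.76e-10). The probe A_51_P234174, starting at base 2641, gave 3.84-fold (1.94 ± 0.10), and its 8 Kupffer samples spanned 7.17 to 7.55 against 9.08 to 9.68 in the tumors.

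Pms1 levels were 8.13, 7.58, 7.94 and 7.12 in TM and 7.13, 6.96, 7.95 and 8.08 in TP. They were 4.72, 4.49, 4.02 and 5.42 in KC and 5.27, 5.17, 4.85 and 3.78 in KT, where 3 of 4 arrays of each group had the probe well above background. Again no tumor sample overlapped the Kupffer samples, and the difference was 2.90 ± 0.30 (7.45-fold, limma adjusted p = 2.68e-09). Mlh3 levels were 7.75, 7.68, 7.97 and 7.73 in TM, 8.02, 7.47, 8.19 and 7.74 in TP, 5.77, 5.39, 5.26 and 6.56 in KC and 6.58, 6.07, 6.38 and 6.10 in KT. The tumor samples were closely grouped and all above the Kupffer samples, by 1.81 ± 0.20 (3.50-fold, limma adjusted p = 7.02e-09). Under normexp, the log2 difference of Pms1 was 1.41, that of Pms2 1.09 and that of Mlh3 1.15.

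Exo1 had the widest range of the members. Its levels were 11.63, 7.95, 8.63 and 10.62 in TM and 10.59, 10.38, 11.71 and 11.76 in TP, against 3.93, 3.33, 3.60 and 4.91 in KC and 4.48, 4.89, 5.12 and 4.18 in KT. Every tumor sample was above every sample of the liver cells, the closest being replicate 2 of TM (7.95) and replicate 2 of ET (7.88). The difference from Kupffer cells was 6.10 ± 0.55, or 68.8-fold (limma adjusted p = 2.3e-10). The probe was well above background on 1 of 4 KC arrays and 2 of 4 KT arrays, so the size of the fold depends on how low signals are treated. Under normexp the log2 difference was 4.04.

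The replication factor C subunits were higher by smaller amounts. Rfc2 levels were 13.06, 11.23, 11.43 and 12.62 in TM, 12.43, 12.50, 12.88 and 12.10 in TP, 10.43, 10.30, 11.06 and 11.00 in KC and 10.77, 10.83, 10.84 and 10.44 in KT. The tumor samples were all above the Kupffer samples, with a difference of 1.57 ± 0.22 (2.97-fold, limma adjusted p = 7.9e-07). The Rfc3 probe crosses an exon junction on the minus strand (mm9 chr5:152448247-152450045) and is given as the member with the smallest difference.
A_51_P479434: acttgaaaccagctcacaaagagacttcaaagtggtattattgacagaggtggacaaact

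Rfc3 levels were 10.79, 9.04, 9.34 and 10.07 in TM and 10.31, 9.99, 10.78 and 9.79 in TP. In KC they were 8.84, 8.87, 8.60 and 9.14, and in KT 9.12, 9.22, 9.28 and 9.01. Replicate 2 of TM fell inside the Kupffer range, and the remaining tumor samples lay above it. The difference was 1.00 ± 0.18 (2.00-fold, limma adjusted p = 2.92e-05). Replicate 1 of TM had the highest TM level of both genes. Without the samples of replicate 1, the TM against KC difference fell from 1.39 to 0.97 for Rfc2 (limma adjusted p = 0.0519) and from 0.95 to 0.61 for Rfc3 (adjusted p = 0.0973).

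**Figure D3:**
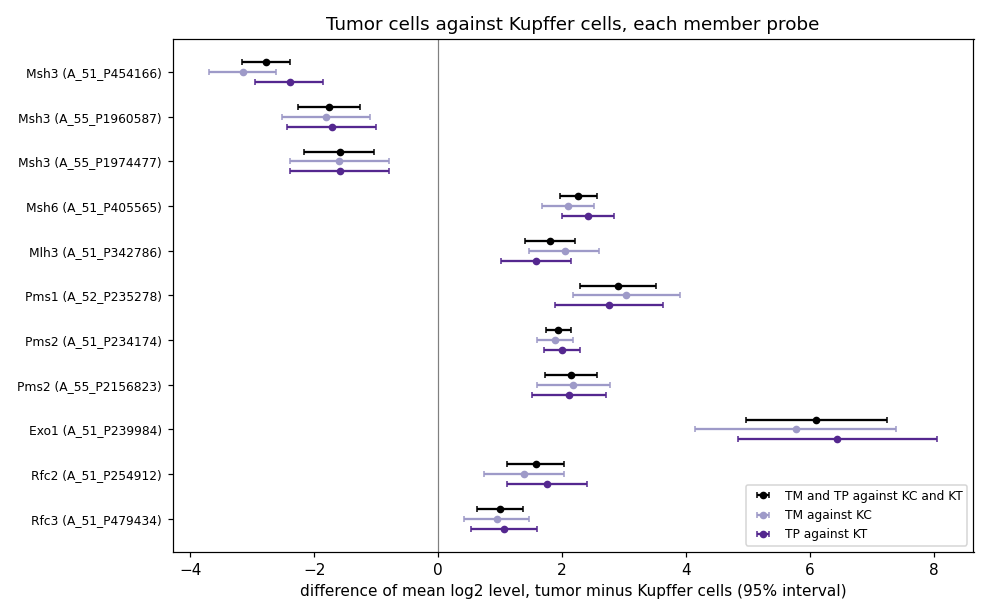
Difference of the mean log2 level, tumor minus Kupffer cells, for each of the 11 probes (horizontal axis, with 95% intervals of the limma fit). Black points compare TM and TP with KC and KT, light points TM with KC and dark points TP with KT. The Msh3 probes lie left of 0 and the other probes right of it in all 3 comparisons.

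TM varied most in Exo1 (SD 1.71), Rfc2 (0.90) and Rfc3 (0.79), and TP in Exo1 (0.73) and Pms1 (0.57). Within TM, replicates 1 and 4 had higher levels of all 3 genes than replicates 2 and 3: for Exo1, 11.63 and 10.62 against 7.95 and 8.63. The summed level of 19 genes of cycling cells, none of them a member, was 17.56 and 17.00 in replicates 1 and 4 and 15.16 and 15.47 in replicates 2 and 3. Other groups did not repeat this for Rfc2 and Rfc3. In TP, replicate 4 had the highest cycling sum (17.64) and Exo1 level (11.76), but the lowest Rfc2 (12.10) and Rfc3 (9.79). In IC, replicate 4 had the lowest cycling sum (13.18) and the highest Rfc2 (10.93) and Rfc3 (8.94). The SD of Mlh3 was 0.13 in TM and 0.32 in TP. Across the 8 groups the cycling sum was highest in TP (16.70 to 17.64) and TM (15.16 to 17.56) and lay between 12.96 and 14.68 in all liver cell samples. In Kupffer cells it was 12.96 to 13.49. In tumor against Kupffer cells, 17 of the 19 cycling genes were higher and 1 was lower, with a median difference of 4.78. The part of cycling in the difference of the repair genes was not tested.

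**Figure D4:**
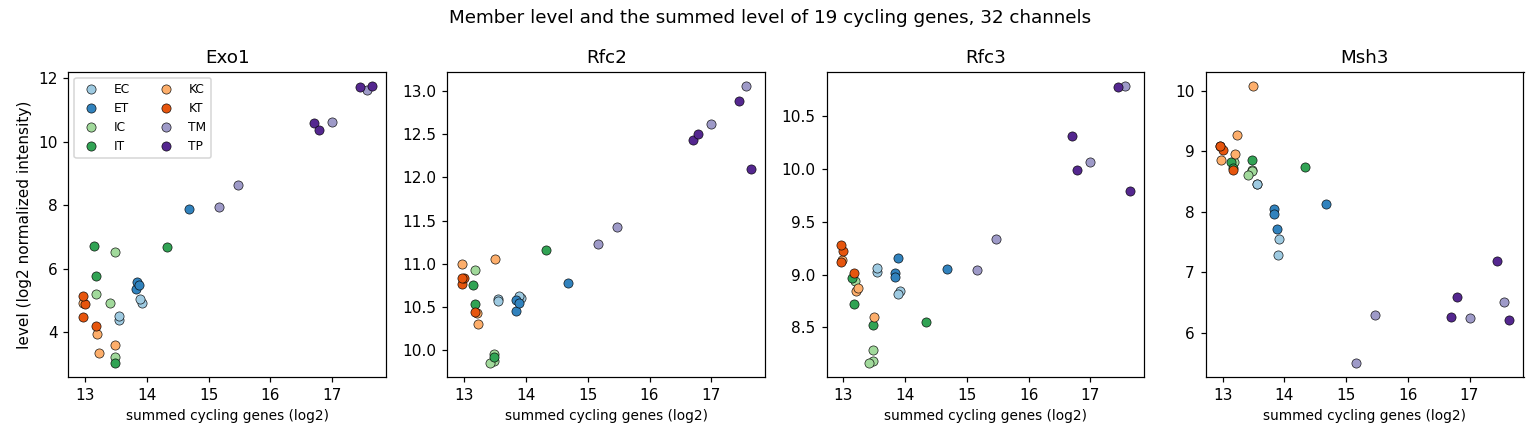
Level of Exo1, Rfc2, Rfc3 and Msh3 (log2 normalized intensity, vertical axis) against the summed level of 19 cycling genes (log2, horizontal axis) in the 32 samples, coloured by group. In TM, the samples with cycling sums of 15.16 and 15.47 also have the lowest Exo1, Rfc2 and Rfc3 levels, and Msh3 is low in all tumor samples. In TP, the sample with the highest sum (17.64) has the lowest Rfc2 and Rfc3 levels.

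Patterns were compared over the 32 samples as a description, among 20151 probes with a gene symbol and a signal well above background in a group. The samples share arrays and fall into few groups, so that the separation of tumor from liver cells dominates these values. Exo1 was most like Zwilch, a kinetochore protein (r = 0.985), Birc5 (0.971) and Sgol1 (0.969). Rfc2 was most like Rfc5, another subunit of the same complex (0.981), the DNA ligase Lig1 (0.969) and Cdkn3 (0.968). Rfc3 was closest to Nsdhl, an enzyme of cholesterol synthesis (0.957), Gins4 (0.951) and Gins2 (0.942), and Msh6 to Snrpd2 (0.971), Nup107 (0.970) and Mcm7 (0.969). For Pms1 the nearest were Acp1 (0.969), Mrpl42 (0.957) and Immp1l (0.956), for Mlh3 Trmt5 (0.948), Ywhaq (0.942) and Amz2 (0.939), and for Pms2 Mccc2 (0.935), Rsrc1 (0.929) and Cbx6 (0.926). Msh3 was nearest to Gm8884 (0.952), Gpcpd1 (0.947) and C130093G08Rik (0.945). Between members, Msh3 correlated negatively with each of the other genes, for example with Msh6 (r = -0.85) and Pms1 (r = -0.86). Over the 24 liver cell samples alone these values were -0.54 and -0.68, while that of Msh3 with Rfc3 was -0.12 and that with Rfc2 turned positive (0.14).

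Most of the further genes of the pathway were also higher in the tumor cells. Of 15 listed genes, 11 were higher than in Kupffer cells and 2 were lower, with a median difference of 1.94. The higher genes included Rfc4 (3.47), the single-strand binding subunit Rpa3 (2.98) and the polymerase delta subunits Pold2 (2.90) and Pold1 (2.82). The clamp Pcna was higher by 1.05. The genes called lower were the polymerase delta subunit Pold3 (-0.66) and Msh5, which acts mainly in meiotic recombination. The Msh5 probe was well above background on 0 of 4 TM, 0 of 4 TP, 2 of 4 KC and 3 of 4 KT arrays, so no size is given. Pold4 (0.26, limma adjusted p = 0.398) and the meiotic Msh4 (0.17, adjusted p = 0.734) did not pass.

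In the promoter windows of RefSeq (GRCm38.p6, 250 bases before to 50 after each start), 6 of the 8 members had an entry, Exo1 and Rfc2 being without one. Forms of the E2F site, through which many genes of DNA replication are controlled (TTTCCCGC, TTTCGCGC, TTTGCCGC and TTTGGCGC, both strands), were found in the windows of Msh3, Msh6 and Rfc3, and in 2.26% of all 32851 windows. Msh3, with lower levels in the tumor cells, thus shared this feature with members that were higher. In the Msh6 window the match lies 16 bases after the start. In Msh3, TTTGGCGC and the reverse complement of TTTCGCGC overlap 202 to 191 bases before the start, and in Rfc3, TTTCGCGC lies 10 bases before it and a reverse match of TTTCCCGC begins at the start. The stretches before the start are given with the matches in capitals, Msh3 at chr13:92355154-92355245 and Rfc3 at chr5:151651209-151651258, both on the minus strand.
Msh3: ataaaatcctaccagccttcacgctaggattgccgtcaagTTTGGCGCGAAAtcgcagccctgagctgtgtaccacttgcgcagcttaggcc
Rfc3: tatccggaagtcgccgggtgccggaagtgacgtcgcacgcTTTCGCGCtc

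The box CCAAT (both strands) was present in the windows of 5 members, all but Msh3, and in 37.4% of all windows. The box GGGCGG was present in 4 (Msh3, Msh6, Pms1 and Pms2) and in 35.7% of all windows. A match of letters is not a site in use.

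No member passed the test between TP and TM cells. None of the 11 probes was called by limma, where 3.01% of all probes were, and none had an unadjusted p under 0.05, where 16.4% did. The largest difference was that of Exo1, 1.40 higher in TP with a 95% interval from -0.21 to 3.01 (limma adjusted p = 0.392). The 4 arrays gave -1.04, 2.43, 3.08 and 1.15. With replicate 1, 2, 3 or 4 left out in turn, the difference was 2.22, 1.06, 0.85 or 1.49 (limma adjusted p from 0.174 to 0.935). Over 17105 probes, too, the array of replicate 1 ran against the mean of the others (r = -0.20). The array of replicate 4 did not run with the others either (r = -0.07). For Msh6 (0.15, interval -0.27 to 0.57), Mlh3 (0.08, -0.49 to 0.64) and the Pms2 probe at base 2641 (0.07, -0.22 to 0.36) the intervals were narrower. The Msh3 probe at base 3846 was the only one without overlap, from 10.47 to 11.02 in TP and from 9.71 to 10.34 in TM (0.59, limma adjusted p = 0.498), as were 10.6% of all probes.

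In the liver cells, no member was called by limma between TME and control. Of all probes, 1.14% were called for endothelial cells, 0.289% for Ito cells and 0.436% for Kupffer cells. No member probe had an unadjusted p under 0.05 in any of the 3, against 7.71%, 9.88% and 7.37% of all probes. The Ito and Kupffer counts include the arrays of replicate 4, which ran against the others. With their channels exchanged, 10.5% and 4.83% of all probes were called, and the member calls are given in the closing section. The median difference of the 11 probes was 0.06, 0.07 and 0.16. The intervals bound some members more closely than others. In endothelial cells, Msh6 differed by 0.02 (95% interval -0.40 to 0.44) and the Pms2 probe at base 2641 by -0.06 (-0.35 to 0.23), whereas the interval of Exo1 ran from -0.25 to 2.98.

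Exo1 and Mlh3 separated ET from EC without overlap but did not pass the test. Exo1 levels were 5.37, 7.88, 5.59 and 5.47 in ET and 4.39, 4.91, 5.04 and 4.51 in EC (difference 1.37, limma adjusted p = 0.83). The high value belonged to replicate 2 of ET, where the cycling sum was also the highest of the group (14.68 against 13.83 to 13.88) and the erythroid sum stood apart. Their part in it was not tested. Mlh3 levels were 7.01, 7.22, 6.91 and 7.00 in ET and 6.44, 6.67, 6.55 and 6.23 in EC (0.56, limma adjusted p = 0.663). In a fit of the endothelial samples alone, the adjusted p of Mlh3 was 0.0347. Groups without overlap were seen for 13.0% of all probes in this comparison. Of the 15 pathway genes, Rpa1 was lower in ET by -1.38 (limma adjusted p = 0.0262). Msh5 was also called lower (adjusted p = 0.0252), with its probe well above background on 0 of 4 ET and 3 of 4 EC arrays. None of the 15 was called in Ito or Kupffer cells.

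In Ito and Kupffer cells, the array of replicate 4 differed in sign from most of the others for several members. For Mlh3, the TME minus control differences of the 4 arrays were 1.27, 0.05, 1.27 and -0.72 for Ito cells, and for Kupffer cells 0.81, 0.67, 1.12 and -0.45. For Exo1 they were 0.18, 3.47, 0.84 and -2.17 for Ito cells, and for Kupffer cells 0.55, 1.56, 1.52 and -0.73. For Rfc3 they were 0.69, 0.37, 0.57 and -0.42, and 0.28, 0.35, 0.67 and -0.13. Thus 3 of 4 arrays were positive and the array of replicate 4 was negative for each of these genes in both cell types. The mean differences of Mlh3 were 0.47 and 0.54, with limma adjusted p of 0.588 and 0.706. Without the samples of replicate 4, Mlh3 differed by 0.86 in Ito cells (limma adjusted p = 0.0585) and by 0.87 in Kupffer cells (adjusted p = 0.0869), so the call did not change. The Msh3 probes gave no common sign in Ito cells. The 4 arrays gave 0.13, 0.06, 0.11 and 0.04 at base 983, -0.10, -1.13, 0.30 and 0.10 at base 2571, and -0.12, -1.09, -0.08 and -0.11 at base 3846.

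**Figure D5:**
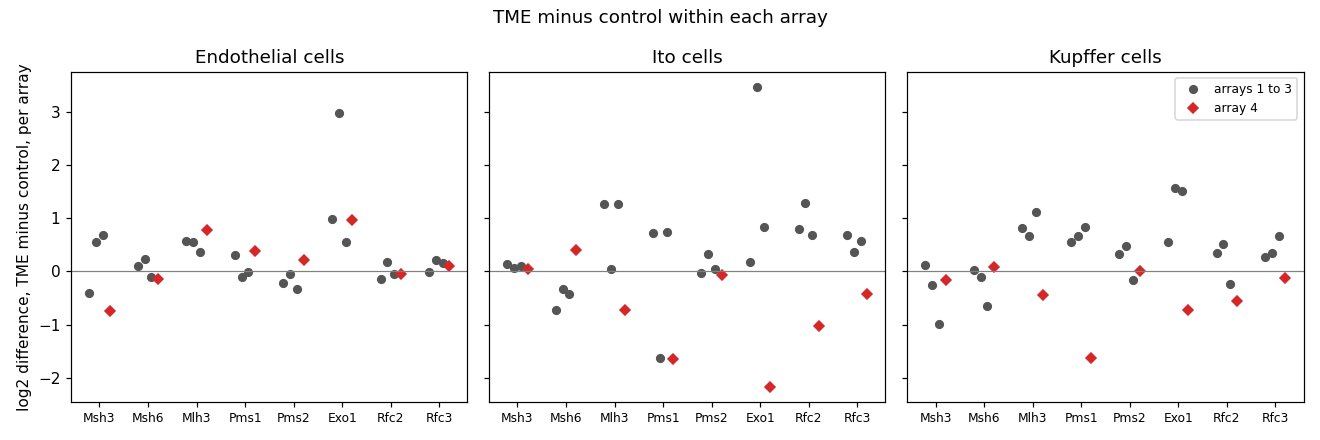
TME minus control difference (log2) within each array, for the 8 genes, in endothelial, Ito and Kupffer cells. Gray circles are arrays 1 to 3 and red diamonds the array of replicate 4, which lies below 0 for Mlh3, Pms1, Exo1, Rfc2 and Rfc3 in Ito and Kupffer cells.

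The TME change of a member was not shown to differ between cell types. For the contrasts endothelial minus Ito, endothelial minus Kupffer and Ito minus Kupffer, 0 of the 11 probes were called by limma (0.111%, 0.0808% and 0.00359% of all probes) and 0 had an unadjusted p under 0.05 (4.45%, 3.88% and 4.13% of all probes). The smallest adjusted p of a member was 0.995. Each of these contrasts includes Ito or Kupffer cells, and with them an array of replicate 4 that ran against the others.

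Between endothelial and Ito cells, which share slide and dye in both pairs, few members were called. In EC against IC, 1 of 11 probes was called, near the 9.89% of all probes, and in ET against IT 2 of 11, against 8.26% of all probes. An unadjusted limma p under 0.05 was more frequent. In EC against IC it was reached by 7 of 11 probes, against 20.7% of all probes. With 1 probe per gene it was reached by 4 of 8. In ET against IT, 3 of 11 probes reached it, against 20.4% of all probes. Markers of other cell types differed along with these groups. The hepatocyte list summed to 14.98 to 15.21 in EC and 17.20 to 18.59 in IC, with 5 of 6 genes lower in EC, and to 13.77 to 15.12 in ET and 17.32 to 18.34 in IT, with 6 of 6 lower in ET. Of the erythroid markers, 4 of 5 were lower in the endothelial group of each pair, and of the macrophage markers 4 of 7 were lower in EC and 0 of 7 in ET. Their part in the differences of Pms2, Pms1 and Msh3 was not tested. The Pms2 probe at base 2641 was higher in endothelial cells in both pairs. It gave 8.03, 8.20, 8.11 and 8.17 in EC and 7.51, 7.47, 7.32 and 7.71 in IC, without overlap (0.63, limma adjusted p = 0.0037). In ET it gave 7.93, 8.43, 7.84 and 8.08 and in IT 7.60, 7.55, 7.34 and 7.48 (0.57, limma adjusted p = 0.00971), again without overlap, as were 16.0% of all probes. The Pms2 probe at base 2244 had differences of 0.69 and 0.53 that did not pass (limma adjusted p = 0.148 and 0.311).

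Pms1 was higher in ET (6.25, 6.46, 6.13 and 6.27) than in IT (5.65, 3.34, 5.57 and 4.50), by 1.51 (limma adjusted p = 0.0235). The probe was well above background on 2 of 4 IT arrays, and the lowest value was that of replicate 2 of IT, with its high epithelial sum. Leaving out the samples of any 1 replicate number gave adjusted p between 0.0528 and 0.242, the latter without replicate 2, where the difference was 0.98.

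Msh3 did not pass the threshold between endothelial and Ito cells. At base 983 the levels were 8.45, 7.55, 7.28 and 8.46 in EC and 8.69, 8.67, 8.61 and 8.82 in IC, all EC samples being lower. The differences of the 3 probes were -0.76, -0.97 and -1.07 (limma adjusted p = 0.0704, 0.0809 and 0.0894), all without overlap, which 21.7% of all probes showed. Replicates 2 and 3 of EC were below replicates 1 and 4 on each probe. In ET, levels at base 983 were 8.05, 8.12, 7.97 and 7.72 and in IT 8.82, 8.73, 8.72 and 8.86 (-0.82, adjusted p = 0.0544). The probes at bases 2571 and 3846 overlapped between ET and IT, with differences of -0.71 and -0.63 (limma adjusted p = 0.251 and 0.405). Leaving out the samples of any 1 replicate number gave adjusted p from 0.0791 to 0.33 at base 983 for EC against IC and from 0.0611 to 0.211 for ET against IT. Several alternatives brought Msh3 past the threshold, for example normexp with quantile normalization (-0.61, adjusted p = 0.0403, for EC against IC, and -0.69, adjusted p = 0.0229, for ET against IT).

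In the order of group means, the tumor groups stood at the end for all 8 genes, Msh3 at the low end and the others at the high end. TP and TM were not separated beyond their spread for any probe that stands for a gene. Among the liver cells, described across the slides without a test, Msh3 at base 983 ran from KC (9.29) and KT (8.97) over IT (8.78 ± 0.06) and IC (8.70 ± 0.09) to ET (7.97 ± 0.17) and EC (7.94 ± 0.61). The steps within a cell type stayed inside the spread, and the step from IC to ET (0.73) did not. Pms1 ran from ET (6.28) and EC (6.13) to IC (5.22), KT (4.77), IT (4.76) and KC (4.66). Rfc2 means lay between 10.59 and 10.72 in all liver groups but IC (10.15 ± 0.52), and Rfc3 means between 8.39 in IC and 9.16 in KT. Against all 6 liver cell groups together, the tumor cells gave the same directions, from -2.26 for Msh3 to 5.43 for Exo1.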

How the data were processed

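RNA of 32 samples, 4 in each of 8 groups taken from the titles, was hybridized to 16 two-colour Agilent arrays and read with Feature Extraction. The authors deposited scanner intensities for each spot and channel and a table of quantile normalized linear intensities for 55681 probes, whose log2 was used here. Flags for signals well above background came from the scanner files. In the deposited files 38.4 to 57.1% of 59305 spots per channel were well above background and none was saturated; the number of arrays limits the precision.

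One limma fit (version 3.58.1, R 4.3.3; lmFit and eBayes) of all 32 channels to the 8 groups gave differences, standard errors and 95% intervals, with Benjamini-Hochberg adjustment over all probes and calls at an adjusted p under 0.05, without a filter or a minimum fold. All 11 member probes also passed a filter on signals well above background on all 4 arrays of a group. All member probes are named, called or not; for a gene with several, the probe with the highest variance over the channels stands for it. Summed levels of a list are the log2 of summed linear intensities. The fit was tested on simulated data. The members, lists and tests were chosen with earlier results of these data known. Some genes of the pathway are not reported here. Alternatives covered background correction, scaling, filter, blocks, the methods' t-test, the study's thresholds, and libraries left out.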

Additional observations from a re-analysis of the deposited data

Results flagged for a closer look

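In 11 of the 88 sets of 4 samples (11 probes in 8 groups), 1 sample lay farther from the others than Dixon's 95% critical value allows. Chance flags about 1 set in 20, and probes share samples. Replicate 4 of IC and replicate 4 of KT, which are on different arrays, held 6 of them. In IC, replicate 4 was low for Msh6 (10.17 against 10.85 to 10.98) and high for Pms1 (6.15 against 4.83 to 4.95), Rfc2 (10.93 against 9.85 to 9.96) and Rfc3 (8.94 against 8.16 to 8.28). In KT, replicate 4 was low for Msh3 at base 983 (8.69 against 9.02 to 9.08) and for Rfc2 (10.44 against 10.77 to 10.84).

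Replicate 2 of IT was low for the Msh3 probes at bases 2571 (7.05 against 8.28 to 8.50) and 3846 (11.13 against 12.16 to 12.23), but not at base 983. Replicate 1 of TM was high for both Pms2 probes, 9.66 against 9.16 to 9.20 at base 2641 and 7.71 against 7.15 to 7.24 at base 2244. Replicate 2 of ET was high for Exo1 (7.88 against 5.37 to 5.59).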

How the results depend on the processing

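The 11 calls in tumor against Kupffer cells, and those in TP against KT, held under every alternative run except the study's thresholds (adjusted p under 0.001 and at least 4-fold), which left 5 in each and 6 in TM against KC. Of all probes, 15.5%, 15.9% and 14.3% passed these thresholds. For TM against KC, 8 probes were called in a fit of those groups alone and by the methods' t-test, and between 9 and 11 with a replicate number left out. Of all probes, 31.2%, 31.1% and 32.9% to 37.7% were called there. Between TME and control, a fit of the endothelial groups alone called 1 probe (Mlh3), and 5.29% of all probes. With the Ito and Kupffer channels of replicate 4 exchanged, 2 were called in Ito cells (Mlh3 and Rfc2), 1 in Kupffer cells (Mlh3) and 3 in EC against IC. Of all probes, 10.5%, 4.83% and 14.5% were called in these comparisons after the exchange. Under the remaining alternatives the counts for TME against control, for TP against TM and for the differences between cell types were 0.

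The counts between endothelial and Ito cells were less stable. In EC against IC, normexp with either normalization called 2 (10.2% and 10.9% of all probes). The filter on signals above background called 3 (20.1% of the probes kept). The study's thresholds called 0 (1.24% of all probes), and leaving out 1 replicate number 1 to 2 (4.68% to 10.5%). In ET against IT, a fit of those groups alone and the methods' t-test called 1 (3.71% and 4.14% of all probes). The study's thresholds called 0 (0.871%), and leaving out 1 replicate number 0 to 1 (3.11% to 7.91%). With ET 2, IT 2, KC 3 and TP 4 left out together, an alternative chosen after seeing the data, each pair called 4. Of all probes, 14.6% were then called in EC against IC and 11.9% in ET against IT.

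The replicate block changed none of these calls. Channels of an array deviated together with correlations from -0.64 to 0.40, so the numbers were not taken to pair samples. With the array as a replicate block, random or fixed, the TME against control counts stayed at 0. The random block called 1.33%, 0.35% and 0.496% of all probes in endothelial, Ito and Kupffer cells. The fixed block called 3.34% in endothelial cells and 0 probes in Ito and Kupffer cells, so there a member count of 0 shows nothing. With the random block, 11 were called in each comparison of tumor with Kupffer cells, where 49.9%, 39.5% and 43.5% of all probes were. In EC against IC it called 1 and in ET against IT 2, against 9.76% and 8.12% of all probes. The 75th percentile scaling moved the median of all probes to 0.55 in tumor against Kupffer cells, and 71.8% of calls were then higher, against 60.3%; Msh3 remained lower, at -2.86. The choice of probe does not enter a count over all member probes. Exo1 in KC and KT and Pms1 in IT, KC and KT were near background, which limits the size of their differences.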
